A study of Mus musculus with 2 samples.

Results

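The cells described here are the MHC class II-positive cells among the IL-23 receptor reporter cells of the mouse small intestine, 2169 of 20041 cells analysed. They were chosen by a fixed rule on unique molecular identifiers (UMIs), which count the RNA molecules captured per gene and cell. A member had at least 500 detected genes and at most 10% mitochondrial UMIs. It had no UMI of the T cell receptor chains Cd3e, Cd3d and Cd3g, and at least 3 UMIs in sum of H2-Aa, H2-Ab1 and H2-Eb1, the genes of the classical class II chains. It also had no UMI of the B cell genes Cd79a and Ebf1, of the myeloid genes Lyz2, C1qa and Apoe, or of Cd4. The members were thus 1024 of 9251 cells in the IL-23 library (11.1%, 95% interval 10.4% to 11.7%) and 1145 of 10790 cells in the unstimulated library (10.6%, 10.0% to 11.2%). Their main comparison group was the 6196 IL-23 and 7514 unstimulated cells that had no CD3 chain UMI and no UMI of the 3 class II genes, called H2-zero cells here.

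Both libraries came from sorted eGFP-positive leukocytes of healthy mice with the Il23r-eGFP genotype, a knock-in in which fluorescence reports the IL-23 receptor gene, so the reporter allele is shared by both groups. Peyer's patches and epithelium were removed before digestion and sorting. After sorting, the IL-23 group was given recombinant mouse IL-23 for 2 hours and the unstimulated group was not, according to the group labels. The protocol text is the same for both and mentions the stimulation. The labels do not give the number, age or sex of the animals, whether animals were pooled, or if the cells without IL-23 were kept in culture for the same time. With 1 library for each group there is no replicate check, and no difference was tested. A level is given in CPM (UMIs of the gene per 1000000 UMIs, both summed over a group of cells), with exact Poisson, binomial (Clopper-Pearson) or conditional binomial 95% intervals that cover counting error only. The IL-23 members had 7086022 UMIs in sum (median 5741.5 per cell) and the unstimulated members had 6410406 (median 4682). The H2-zero cells had medians of 6074 UMIs in the IL-23 library and 4901.5 in the unstimulated library. The libraries had 29 cell barcodes in common, 3 of them among the IL-23 members and 1 among the unstimulated members.

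Class II molecules present peptides from outside the cell to CD4+ T cells. Their alpha and beta chains assemble in the endoplasmic reticulum with the invariant chain, encoded by Cd74, and the H2-DM complex later exchanges a remnant of that chain for antigenic peptide. Group 3 innate lymphoid cells (ILC3s) carry the IL-23 receptor, respond to IL-23 with IL-22 and IL-17, and in the mouse intestine include CCR6+ lymphoid tissue inducer-like cells, a part of which carries class II and can present antigen to T cells with little conventional co-stimulation.

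The genes that define these cells lie together in the H2 locus of chromosome 17 (GRCm38). H2-Aa, the alpha chain of I-A, spans chr17:34282744-34287823 on the minus strand, H2-Ab1, its beta chain, spans chr17:34257689-34269419 on the plus strand, and H2-Eb1, the beta chain of I-E, spans chr17:34305867-34316674 on the plus strand. Class II promoters are known for paired X and Y boxes, which are bound by the RFX and NF-Y complexes and are the platform for the co-activator CIITA. Letters for these boxes were therefore looked for in the RefSeq promoter windows of GRCm38.p6, which cover 250 bases before to 50 after a gene's start and were found for 16 of the 20 class II genes asked for. The 4 windows that hold the pair are shown in part because they let the boxes be compared between class II chains, with GNAACT and GATTGG in capitals on the gene's own strand and 20 bases on either side.
H2-Aa, chr17:34287847-34287924, minus strand: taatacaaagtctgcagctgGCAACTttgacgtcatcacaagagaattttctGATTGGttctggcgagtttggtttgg
H2-Eb1, chr17:34305756-34305832, plus strand: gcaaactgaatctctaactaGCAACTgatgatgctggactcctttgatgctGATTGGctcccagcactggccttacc
H2-Eb2, chr17:34325523-34325599, plus strand: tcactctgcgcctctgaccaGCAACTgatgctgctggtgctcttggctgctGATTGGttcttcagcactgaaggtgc
H2-DMb1, chr17:34153077-34153154, plus strand: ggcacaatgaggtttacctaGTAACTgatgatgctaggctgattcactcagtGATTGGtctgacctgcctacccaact

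From the first letter of GNAACT to the first letter of GATTGG the distance was 32 bases in H2-Aa and H2-DMb1 and 31 in H2-Eb1 and H2-Eb2. The first letter of GATTGG lay 49 bases before the start of H2-Aa, 60 before H2-Eb1, 101 before H2-Eb2 and 62 before H2-DMb1. Among 32851 promoter windows, on either strand, 16.1% held GATTGG, 42.8% held GNAACT, and 0.317% (104 windows) held GNAACT followed by GATTGG at 20 to 40 bases, a spacing at which the motifs cannot overlap. The letters and the spacing were chosen after the H2-Aa promoter had been read, so its match is not a finding. The H2-DMa windows held no such pair, which says only that these letters are not there. H2-Ab1 and Cd74 were not among the 4 genes with the pair either, being without a window or without the pair. A match is a run of letters, and H2-Eb2 had 0 UMIs in the members of both libraries despite it.

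The threshold of 3 UMIs cuts a continuous range. Among the IL-23 members 111 cells had exactly 3 class II UMIs, 100 had 4 and 89 had 5, with a median of 9 and a maximum of 144. Among the unstimulated members 199 had exactly 3, 127 had 4 and 102 had 5, with a median of 7 and a maximum of 106. Just outside the threshold, 265 IL-23 and 305 unstimulated cells had 2 UMIs and met every other condition. Of the CD3-negative cells with at least 3 class II UMIs (1246 in the IL-23 library and 1380 in the unstimulated library), 53 and 65 were set aside for a B cell or myeloid gene and 177 and 176 for Cd4, of which 8 and 6 had both. All 3 chains were detected together in 49.2% of the IL-23 members and 42.6% of the unstimulated members.

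**Figure D1:**
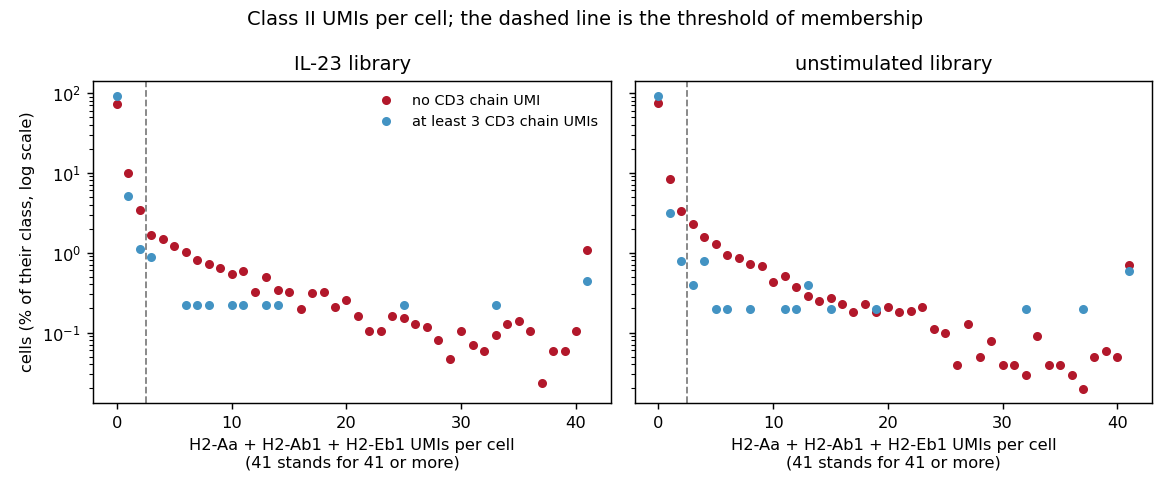
Share of cells (percent of their class, log scale) by the summed UMIs of H2-Aa, H2-Ab1 and H2-Eb1 per cell in the IL-23 and unstimulated libraries, for cells without a CD3 chain UMI (red) and cells with at least 3 (blue). The red points fall off without a gap across the dashed threshold, and fewer of the cells with CD3 chain UMIs lie beyond it (3.36% in the IL-23 library and 3.91% in the unstimulated library).

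Cells with at least 3 CD3 chain UMIs, taken as T cells, were set beside them as a cell type that should lack class II. Of these, 15 of 447 IL-23 cells (3.36%, 1.89% to 5.47%) and 20 of 512 unstimulated cells (3.91%, 2.40% to 5.97%) reached 3 class II UMIs, at deeper medians of 7594 and 6439.5 UMIs. No class II UMI was found in 90.4% and 92.2% of the T cells, while 8 of the 15 and 11 of the 20 had at least 10, and whether these are doublets, free RNA or T cells with class II was not tested. Among all CD3-negative cells the share was 14.5% with IL-23 and 13.7% without, at medians of 6021 and 4867 UMIs. The share was not even over the CD3-negative cells. It was 37.3% of Cd4+ cells in the IL-23 library and 36.3% in the unstimulated library, 33.0% and 32.3% of Ccr6+ cells, 4.71% and 4.09% of Ncr1+ cells, and 11.4% and 10.5% of cells with none of these UMIs, in the same order of libraries. Median depths were 6803.5 and 5587 UMIs for Cd4+ cells, 6308 and 5032 for Ccr6+ cells and 7353 and 5978.5 for Ncr1+ cells. The Ncr1+ cells were thus near the share in T cells, while the Cd4+ cells, which the rule leaves out of the members, had the highest share of those compared.

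The given markers came with the label and were chosen with earlier results of these data known. Their levels therefore describe the members and are no check of the label. H2-Aa stood at 1103 CPM in IL-23 members and 1151 CPM in unstimulated members, H2-Ab1 at 518 and 487 CPM, and H2-Eb1 at 517 and 493 CPM, all fixed above 0 by the rule. Cd74, which the rule did not use, stood at 2474 CPM (2438 to 2511) in IL-23 members and 63.6 CPM in IL-23 H2-zero cells. In the unstimulated library it stood at 2342 CPM (2304 to 2379) in members and 66.5 CPM in H2-zero cells. Members were thus 38.9-fold (37.3 to 40.6) and 35.2-fold (33.8 to 36.7) above H2-zero cells. A Cd74 UMI was found in 91.6% of IL-23 members, 14.7% of IL-23 H2-zero cells and 10.3% of the T cells there, and in 92.4%, 13.4% and 9.77% of the same unstimulated groups. With every cell thinned to 3000 UMIs the shares were 86.9%, 9.62% and 5.49% with IL-23 (40, 440 and 10 shallower cells left out) and 88.6%, 10.0% and 6.55% without (57, 619 and 8 left out).

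Nrp1, the semaphorin and VEGF co-receptor neuropilin-1, had 253 CPM in IL-23 members and 82.2 CPM in IL-23 H2-zero cells, and 267 CPM in unstimulated members and 94.3 CPM in unstimulated H2-zero cells. Bmp2, a secreted morphogen of the BMP family, had 113 and 24.4 CPM in the same IL-23 groups and 131 and 27.6 CPM in the unstimulated ones. Tgm2, tissue transglutaminase, had 343 and 78.3 CPM with IL-23 and 320 and 79.4 CPM without. These were therefore 2.83-fold (Nrp1, unstimulated) to 4.75-fold (Bmp2, unstimulated) higher in members. A Tgm2 UMI was found in 71.2% of IL-23 members, 20.6% of H2-zero cells and 7.61% of T cells, and in 65.6%, 19.0% and 5.47% without IL-23. After thinning these shares were 54.4%, 14.8% and 4.12% with IL-23 and 51.7%, 15.2% and 3.57% without, so the order of the cell groups was the same at matched depth.

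The ILC3 identity rests on the sort and on genes that T cells of the same sort also hold. The receptor gene Il23r, on which the sort rests, stood at 151 CPM in IL-23 members and 194 CPM in IL-23 H2-zero cells, and at 115 and 132 CPM in the unstimulated groups. A UMI of it was found in 55.2% of IL-23 members, 62.0% of H2-zero cells and 74.0% of T cells, and in 42.4%, 44.0% and 52.7% of the unstimulated groups. Il22 was detected in 100% of IL-23 members and 96.1% of unstimulated members, against 99.8% and 81.3% of H2-zero cells. Of the T cells 97.8% and 43.0% had an Il22 UMI, so at these levels the share with a UMI does not separate cell types in the IL-23 library.

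The lists for other cell types were summed over the genes that the rule had not set to 0, and their part in the results was not tested. The B cell list (10 genes left by the rule) summed to 93.8 CPM in IL-23 members and 22.2 CPM in H2-zero cells, and to 93.3 and 25.2 CPM in the unstimulated library. Of that sum 80.9 and 83.1 CPM in members came from Blk, a Src-family kinase that interleukin-17-producing lymphocytes also use, while Ms4a1 and Pax5 were at 0 in members of both libraries. The macrophage list (10 genes) summed to 10.7 CPM in IL-23 members and 3.56 CPM in H2-zero cells, and to 8.58 and 3.53 CPM without IL-23. The dendritic cell list (12 genes) summed to 192 and 190 CPM with IL-23 and to 183 and 129 CPM without, with Itgax, Clec9a, Siglech and Clec10a at 0 in all 4 groups. Its measured genes were the transcription factor genes Zbtb46, Batf3 and Irf8, which ILC3s also express. Of these 3, Batf3 and Zbtb46 were at least 1.5-fold higher in members in both libraries, with list medians of 1.16 and 1.25 on the log2 scale. Against Ccr6+ H2-zero cells, described further on, none of the 3 was past 1.5-fold in both libraries. Flt3, a growth factor receptor of dendritic cells that was picked after its values were seen, had 30 UMIs in the members of each library, or 4.23 CPM with IL-23 and 4.68 CPM without, against 0.581 and 0.438 CPM in H2-zero cells.

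Of the list for antigen-presenting cells of other kinds in the intestine, Aire and Itgb8 were at 0 in members of both libraries, and the 12 genes summed to 340 CPM in IL-23 members and 357 CPM in H2-zero cells, and to 344 and 364 CPM without IL-23, mostly from Itgav. Of its 2 measured genes, Ccr7 was at least 1.5-fold higher in members in both libraries and 1 lay between the bounds. The T cell list (10 genes left by the rule) summed to 181 CPM in IL-23 members and 432 CPM in H2-zero cells, and to 210 and 573 CPM without IL-23. The plasma cell list (8 genes) summed to 59.8 and 111 CPM with IL-23 and 60.4 and 97.7 CPM without. The NK and ILC1 list (9 genes) summed to 21.9 and 93.6 CPM with IL-23 and 13.3 and 48.5 CPM without. The ILC2 list summed to 13.3 and 10.7 CPM with IL-23 and 18.9 and 12.3 CPM without, and the stromal and endothelial list to 75.1 and 86.3 CPM and to 62.6 and 78.3 CPM. Epithelial genes summed to 7.06 and 13.1 CPM with IL-23 and 6.86 and 10.5 CPM without, mast cell and granulocyte genes to 0 and 0.202 CPM and to 0.312 and 0.155 CPM, and cell cycle genes to 210 and 206 CPM and to 205 and 212 CPM. The B cell, macrophage, dendritic cell and ILC2 sums were thus higher in members in both libraries. The B cell sum was so mostly through Blk, and the dendritic cell sum differed little with IL-23. Among the lower sums were those of T cells, plasma cells and NK cells.

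**Figure D2:**
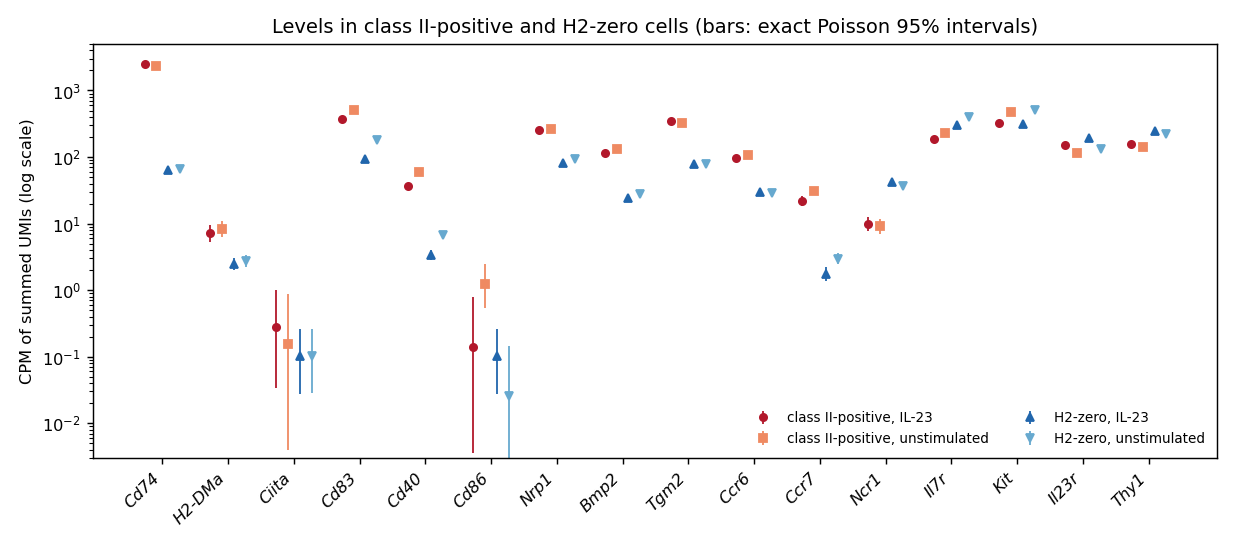
Level of 16 genes (CPM of summed UMIs, log scale) in class II-positive and H2-zero cells of both libraries, with exact Poisson 95% intervals as bars. Cd74 stands near 2474 CPM in IL-23 members against 63.6 CPM in H2-zero cells, the lymphoid tissue inducer-like genes lie above H2-zero cells, Ncr1 and Il7r lie below, and Ciita and Cd86 stay near the level of single UMIs.

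Across all genes measured in the comparison of members with H2-zero cells (6808 genes with at least 10 CPM in 1 of the 2 groups and 20 UMIs over both), 273 (4.01%) were at least 1.5-fold higher in members in both libraries and 336 (4.94%) at least 1.5-fold lower. The median log2 ratio over all of them was 0.04 in the IL-23 library and 0.003 in the unstimulated library. With edgeR's TMM scaling these medians were -0.08 and -0.05. The class II level chose both groups, so these counts and the values below describe the cells and test nothing.

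The class II pathway outside the chains was unevenly represented. Of 17 genes of the pathway, 9 were measured, of which 2 were at least 1.5-fold higher in members and none lower, with list medians of 0.44 and 0.45 on the log2 scale. Beside Cd74, this was H2-Oa, a chain of the H2-O modulator of peptide loading, with 106 UMIs in IL-23 members and 96 in unstimulated members, against 125 in the H2-zero cells of each library (3.16 and 3.22 CPM), so members were 4.74-fold and 4.65-fold higher per UMI captured. The lysosomal protease Ctss had 36.8 CPM in IL-23 members and 23.7 CPM in H2-zero cells, and 39.5 and 27.7 CPM without IL-23, 1.56 and 1.42-fold. The X box factors Rfx5, Rfxap and Rfxank and the Y box factors Nfya, Nfyb and Nfyc were all detected and stayed between the bounds in at least 1 library.

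The remaining genes of the pathway were below the level for a count. H2-DMa, the alpha chain of H2-DM, had 51 UMIs in IL-23 members (7.20 CPM) and 54 in unstimulated members (8.42 CPM), against 2.45 and 2.76 CPM in H2-zero cells. H2-DMb1, whose reads can be shared with its near copy H2-DMb2, had 25 and 14 UMIs in members and 3 and 8 in the far larger H2-zero groups. Ciita, the co-activator of class II transcription, had 2 UMIs in IL-23 members and 1 in unstimulated members, against 4 in the H2-zero cells of each library. Lgmn, the lysosomal protease legumain, had 5.50 CPM in IL-23 and 7.33 CPM in unstimulated members, against 0.910 and 0.980 CPM in H2-zero cells. The Ciita counts in members are under the 3 counts that an observed 0 allows, so its level was not detectable at this depth.

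Co-stimulatory genes divided in the same way. Only Cd40, Cd83 and Cd274 of the 12 listed were measured, and Cd40 and Cd83 were at least 1.5-fold higher in members. Cd40, the receptor through which T cells activate antigen-presenting cells, had 36.6 CPM in IL-23 members and 3.34 CPM in IL-23 H2-zero cells, and 60.4 CPM in unstimulated members and 6.71 CPM in unstimulated H2-zero cells. Cd83, which stabilises class II at the surface, had 369 and 93.8 CPM with IL-23 and 517 and 179 CPM without. The log2 ratio of members over H2-zero cells was 3.45 with IL-23 and 3.17 without for Cd40, and Cd83 was 3.93-fold and 2.89-fold higher in members.

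The B7 ligands that bind CD28 were found in few cells. Cd80 had 6 UMIs in IL-23 members and 14 in unstimulated members, against 7 and 13 in the far larger H2-zero groups. Relative to all UMIs members were 4.79-fold (1.33 to 16.6) and 6.51-fold (2.84 to 15.1) higher, with a Cd80 UMI in 0.586% of IL-23 members and 0.0968% of H2-zero cells, and in 1.14% and 0.173% without IL-23. Cd86 had 1 UMI in IL-23 members and 8 in unstimulated members, against 4 and 1 in H2-zero cells. A Cd86 UMI was seen in 0.0977% of IL-23 members, 0.0646% of H2-zero cells and 1.57% of the deeper T cells, and in 0.262%, 0.0133% and 2.54% without IL-23. The member shares rest on 1 and 3 cells, so at this depth they give no firm order. Cd274, encoding the inhibitory ligand PD-L1, had 22.2 CPM in IL-23 members and 35.6 CPM in H2-zero cells, and 27.9 and 29.7 CPM without IL-23. Tnfsf4 encodes the ligand of OX40, a receptor found on T cells. It had 67 and 48 UMIs in members, which is 9.46 and 7.49 CPM against 1.24 and 1.03 CPM in H2-zero cells.

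Genes of lymphoid tissue inducer-like cells were the list with the most genes on the high side. Of 12 listed, 11 were measured, 8 were at least 1.5-fold higher in members in both libraries (Bmp2, Tgm2, Nrp1, Cxcr5, Ccr7, Tnfsf11, Ccr6 and Lta) and none was lower, with medians of 1.14 and 0.82. Set beside Ccr6+ H2-zero cells, as described further on, the list had 3 higher and 2 lower genes and negative medians. Bmp2, Tgm2 and Nrp1 were also given as markers of these cells, so they are not independent of the label. Ccr6, the receptor of CCL20, had 95.1 CPM in IL-23 members and 30.4 CPM in H2-zero cells, and 108 and 29.2 CPM without IL-23. Ccr7, which guides cells to lymph nodes, had 22.0 and 1.74 CPM with IL-23 and 31.4 and 2.97 CPM without, 12.6-fold (9.45 to 17.0) and 10.6-fold (8.37 to 13.4). Tnfsf11, the ligand RANKL, had 231 and 105 CPM with IL-23 and 305 and 173 CPM without. Il17a, Il17f and Ltb were the measured genes of the list that did not pass 1.5-fold in both libraries.

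Genes of NCR+ cells, the natural killer receptor-bearing ILC3s with a type 1 leaning, were on the low side. Of 16 listed, 8 were measured and 6 were at least 1.5-fold lower in members (Ncr1, Klrk1, Tbx21, Gzmb, Xcl1 and Ccl4), with medians of -1.88 and -1.61. Ncr1, which encodes the receptor NKp46, had 10.0 CPM in IL-23 members and 42.6 CPM in H2-zero cells, and 9.20 and 36.2 CPM without IL-23. Tbx21, encoding T-bet, had 1.27 and 12.4 CPM with IL-23 and 3.74 and 13.2 CPM without. Klrk1, encoding NKG2D, had 114 and 302 CPM with IL-23 and 111 and 301 CPM without. None of the 8 was higher in members.

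The 15 genes with the highest ratios, taken by the smaller of both libraries, were Cd74, 8030451A03Rik, Ccr7, Pmaip1, Cd40, Tnfsf8, Mef2c, Alcam, Bend4, Blk, Dscam, Pard3, Bmp2, Foxs1 and Whrn. Pmaip1, which encodes the pro-apoptotic protein NOXA, had 37.5 CPM in IL-23 members and 3.66 CPM in H2-zero cells, and 34.9 and 3.20 CPM without IL-23. Tnfsf8, the ligand of CD30, had 62.7 and 7.91 CPM with IL-23 and 95.8 and 9.46 CPM without. Alcam, the ligand of the T cell molecule CD6, had 88.9 and 16.1 CPM with IL-23 and 74.1 and 13.3 CPM without. The last of the 15, Whrn, was still 4.64 and 4.54-fold higher. The 10 lowest were Pcp4, Nkg7, Cdk14, Lgals1, Cd200r4, Ctsw, Ryk, Gimap4, Ncr1 and Dppa2. Among these the cytotoxic granule gene Nkg7 had 6.63 and 41.8 CPM with IL-23 and 7.02 and 36.1 CPM without, and the protease gene Ctsw had 18.9 and 88.7 CPM with IL-23 and 18.6 and 87.5 CPM without. Pcp4, a calmodulin-binding peptide, had 85.4 and 482 CPM with IL-23 and 122 and 639 CPM without.

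**Figure D3:**
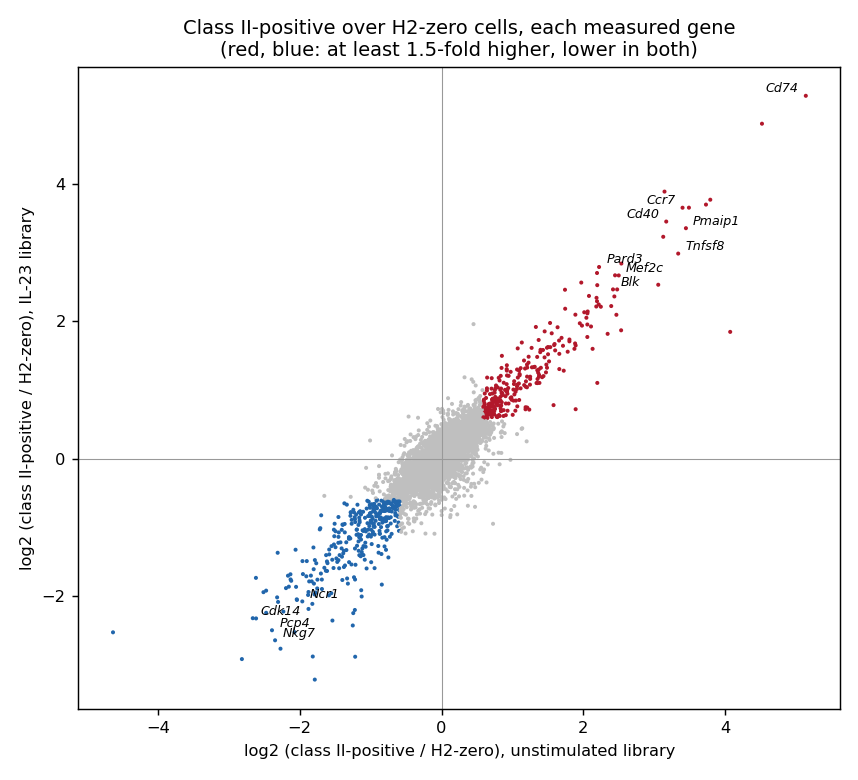
Log2 ratio of class II-positive over H2-zero cells for each of 6808 measured genes, in the IL-23 library (vertical) and the unstimulated library (horizontal). The 273 red genes were at least 1.5-fold higher in members in both libraries and the 336 blue genes at least 1.5-fold lower, with Cd74 farthest out at log2 ratios of 5.28 and 5.14.

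Core ILC3 genes were mostly alike in both groups. Of 15 measured, none was at least 1.5-fold higher in members and 4 were lower (Il7r, Thy1, Zbtb16 and Arg1), with medians of -0.46 and -0.19. Il7r, the receptor for the survival cytokine IL-7, had 184 CPM in IL-23 members and 305 CPM in H2-zero cells, and 230 and 401 CPM without IL-23. Zbtb16, encoding the innate lymphocyte factor PLZF, had 37.4 and 74.7 CPM with IL-23 and 40.9 and 73.9 CPM without. Kit, the stem cell factor receptor, had 324 and 312 CPM with IL-23 and 480 and 518 CPM without. The genes of the interferon list were lower in 5 of 14 (Irf7, Isg15, Cxcl9, Gbp2 and Igtp) and higher in none, with medians of -0.83 and -0.58, and class I presentation stayed between the bounds in 13 of 13 genes, with medians of -0.21 and -0.15.

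Smaller lists showed single genes. Of 15 measured cytokine and growth factor genes, Bmp2, Lta and Vegfa were at least 1.5-fold higher in members and Cxcl2, Areg and Tgfb1 lower. Vegfa, the ligand of VEGF receptors and neuropilin-1, had 177 and 55.6 CPM with IL-23 and 217 and 72.0 CPM without. Of 4 measured checkpoint genes, Pdcd1, encoding PD-1, was higher, at 114 CPM in IL-23 members and 36.4 CPM in H2-zero cells and at 168 and 55.9 CPM without IL-23. Ctla4, an inhibitory receptor that captures CD80 and CD86, was lower, at 37.5 and 216 CPM with IL-23 and 4.06 and 17.4 CPM without. Ctla4, Nt5e and Cd200r1 were the 3 lower genes. Of 12 homing genes, 4 were higher (S1pr1, Cxcr4, Cd9 and Icam1) and 2 lower (Cxcr6 and Ccr9). S1pr1, which lets lymphocytes leave tissue, had 46.1 and 18.7 CPM with IL-23 and 27.5 and 8.69 CPM without. Of 12 immediate early and heat shock genes 2 were higher (Jun and Hspa1a). Of 16 STAT3 target genes 3 were lower (Icos, Maf and Socs2), and of 3 measured cell cycle genes none was past 1.5-fold. The same lists were set beside Ccr6+ H2-zero cells, described further on. Of 14 measured cytokine genes Bmp2 was higher in members there and Il17a lower. Of 3 checkpoint genes none was higher, and Nt5e and Cd200r1 were lower. Of 11 homing genes only Cd9 was higher, and of 12 early and heat shock genes none. Icos was the only lower one of 16 STAT3 target genes, and Top2a was higher among 3 cell cycle genes. All others were between the bounds or not measured.

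Because Ccr6+ cells hold class II more often, members were also set beside Ccr6+ H2-zero cells, 612 in the IL-23 library and 654 in the unstimulated library, with Cd4 at 0. Of 6766 measured genes, 74 (1.09%) were then at least 1.5-fold higher in members and 79 (1.17%) lower. Of the 273 genes higher against all H2-zero cells, 59 (21.6%) were also higher here. Of the 336 lower genes, 46 (13.7%) were also lower here. Both shares are of all the genes called before, whether or not they were measured in this comparison. Among the 15 highest genes named above all but Foxs1 stayed higher. Among the 10 lowest Pcp4, Ryk and Gimap4 stayed lower, and Cd200r4, Ctsw and Dppa2 lay between the bounds. Nkg7, Cdk14, Lgals1 and Ncr1 were below the level for a count here, so they could not be called. Nkg7 had 5.57 and 4.25 CPM in Ccr6+ H2-zero cells, against 6.63 and 7.02 CPM in members. Of 13 measured interferon genes 1 was lower (Cxcl9). Cd74 had 159 CPM in IL-23 and 177 CPM in unstimulated Ccr6+ H2-zero cells, so members were 15.5-fold and 13.2-fold above them. Cd40 had 10.4 and 21.5 CPM there, and members were 3.51-fold and 2.80-fold above. For Bmp2 the folds were 1.92 and 1.76, for Nrp1 1.57 and 1.51, and for Tgm2 1.65 and 1.39. Ncr1 had 8.72 and 9.63 CPM in Ccr6+ H2-zero cells, against 10.0 and 9.20 CPM in members, and of the 5 NCR-like genes measured here (Klrk1, Klrb1b, Ccl5, Gzmb and Il2rb) none was past 1.5-fold in 1 direction in both libraries. Of 11 measured lymphoid tissue inducer-like genes, 3 were higher in members (Bmp2, Nrp1 and Ccr7) and 2 lower (Il17a, and Ccr6 by the choice of cells), with medians of -0.22 and -0.15. The 12 genes of that list summed to 2097 CPM in IL-23 members and 2683 CPM in Ccr6+ H2-zero cells, and to 1497 and 1569 CPM without IL-23. Members were also not uniformly Ccr6+. Of the IL-23 members 361 (35.3%) had a Ccr6 UMI without an Ncr1 UMI, 31 had Ncr1 alone, 24 had both and 608 (59.4%) had neither, and the unstimulated counts were 395 (34.5%), 28, 13 and 709 (61.9%).

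Some genes that stood out in this comparison were outside the named rule and were picked after their values were seen. Plek, the platelet kinase substrate pleckstrin, had 54.5 CPM in IL-23 members and 7.27 CPM in Ccr6+ H2-zero cells, and 81.7 and 14.2 CPM without IL-23. Cd7, a lymphocyte surface receptor, had 73.4 and 22.3 CPM with IL-23 and 72.1 and 26.6 CPM without. Runx2, a transcription factor, had 30.3 and 11.1 CPM with IL-23 and 34.9 and 9.35 CPM without. On the low side Wwtr1, the Hippo pathway co-activator TAZ, had 12.1 and 44.1 CPM with IL-23 and 10.9 and 57.0 CPM without.

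Within the members, cells with Ccr6 alone and cells with neither gene were close in class II. Members with Ccr6 alone had 1043 CPM of H2-Aa with IL-23 and 1136 CPM without, and members with neither gene had 1221 and 1242 CPM. The few members with Ncr1 alone had 707 and 431 CPM, from deeper cells with medians of 9030 and 8410.5 UMIs. Ctla4 was spread unevenly in the IL-23 library, at 141 CPM in members with Ncr1 alone (43 UMIs), 26.2 CPM in members with Ccr6 alone and 33.9 CPM with neither.

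Across bins of class II UMIs per cell, set among cells that met all other conditions of the rule, other genes differed in steps. Median depth lay between 5575 and 6117 UMIs in the 6 IL-23 bins and between 4468 and 5120 in the unstimulated ones. From 0 UMIs over 1 to 2, 3 to 5, 6 to 10 and 11 to 20 to more than 20, Cd74 in the IL-23 library had 56.4, 261, 858, 1329, 2448 and 5915 CPM. In the unstimulated library it had 63.3, 384, 955, 1640, 2624 and 5795 CPM. Cd83 was at 90.8 CPM in the lowest and 463 CPM in the highest IL-23 bin, and at 176 and 613 CPM in the unstimulated ones. H2-DMa stayed at or below 7.43 CPM up to the bin of 11 to 20 UMIs in both libraries and had 16.2 CPM with IL-23 and 25.3 CPM without above 20.

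Other genes differed less beyond the first bins. Nrp1 had 217, 252, 251 and 305 CPM in the 4 upper IL-23 bins and 227, 311, 293 and 250 CPM in the unstimulated ones, against 77.3 and 91.3 CPM at 0 UMIs. Ncr1 was at 43.9 CPM at 0 UMIs and between 8.40 and 11.5 CPM from 3 UMIs up in the IL-23 library. Il22 was lower in each higher bin of the IL-23 library, with 28578 CPM at 0 UMIs and 16654 CPM above 20, while the 6 unstimulated bins lay between 5139 and 7247 CPM without an order. Cells with 1 or 2 class II UMIs lay between both ends in Cd74, Cd83, Nrp1, Tgm2 and Ncr1, in both libraries.

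**Figure D4:**
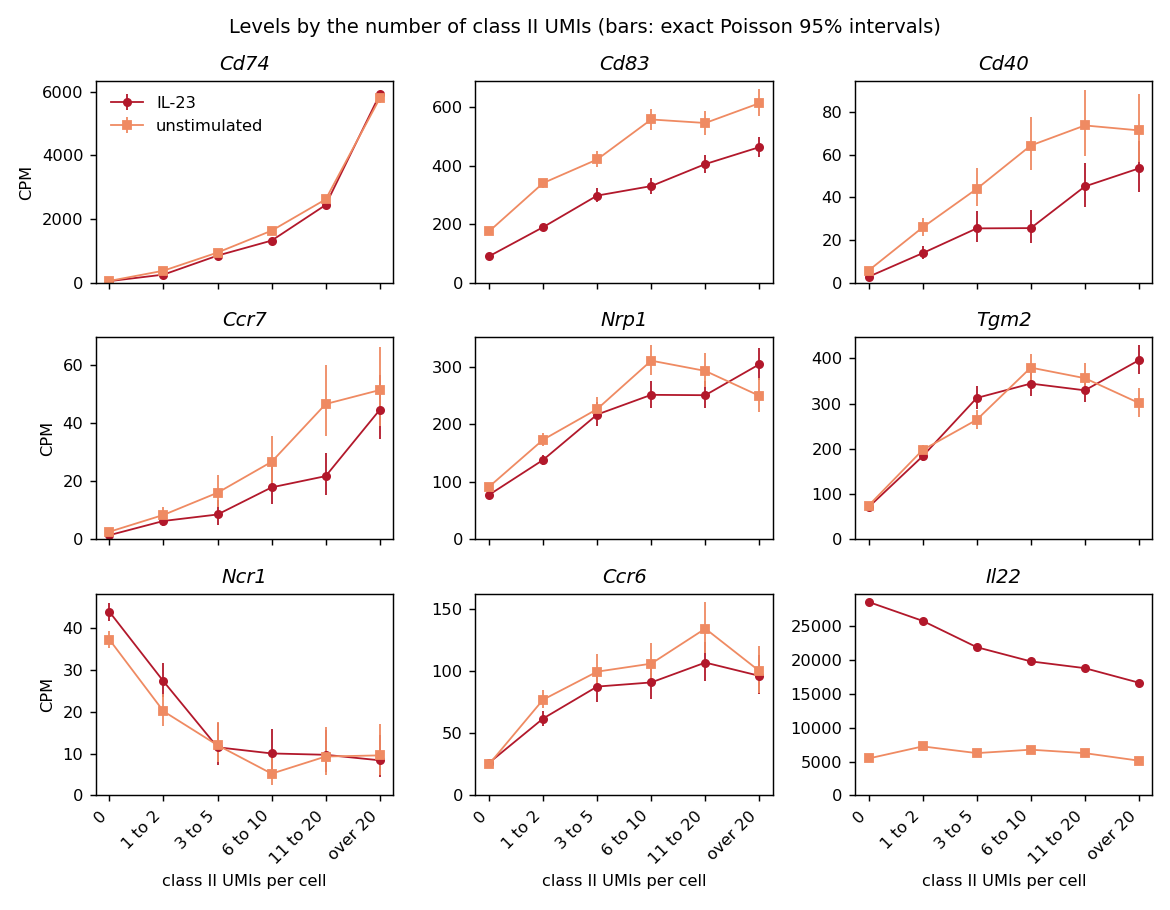
Level of 9 genes (CPM, linear scale from 0) by the number of class II UMIs per cell in the IL-23 and unstimulated libraries, with exact Poisson 95% intervals as bars. Cd74, Cd83, Cd40 and Ccr7 were higher in the upper than in the lower bins, Nrp1, Tgm2 and Ccr6 differed less from 3 to 5 UMIs on, Ncr1 was lowest from 3 UMIs up, and Il22 was lower in higher bins of the IL-23 library.

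Over single cells, the genes most like H2-Ab1 among all CD3-negative cells (Pearson r of log-scaled values per cell, the smaller of both libraries) were H2-Aa (0.62), Cd74 (0.62), H2-Eb1 (0.60), Tgm2 (0.26), Bend4 (0.25), Cd83 (0.24), Foxs1 (0.22), Bmp2 (0.21), Pmaip1 (0.21) and Blk (0.21). The values rest on 8583 IL-23 and 10075 unstimulated cells, which share a library and differ in depth, and are a description. Below the class II genes themselves the correlations are weak in these sparse counts.

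The IL-23 response of the members was measured within cells of the same rule. The threshold of 3 UMIs was fixed, while median depth was 5741.5 UMIs in IL-23 members and 4682 in unstimulated members. It thus stands for a lower relative class II level in the deeper IL-23 library, and its part in the ratios was not tested. The share of members differed by little between the libraries. Over all CD3-negative cells, where no class II threshold applies, the 3 chains summed to 380 CPM with IL-23 and 379 CPM without. Within members the rule sets a lower limit on the chains in both libraries, so their ratios are a description: H2-Aa had 0.959 times the unstimulated level in IL-23 members, H2-Ab1 1.06 times and H2-Eb1 1.05 times. Cd74, outside the rule, had 1.06 times the unstimulated level (1.03 to 1.08), and 0 of 9 measured genes of the class II pathway were past 1.5-fold. Over all 6973 measured genes, 204 (2.93%) were at least 1.5-fold higher in IL-23 members and 261 (3.74%) lower, with a median log2 ratio of -0.08. With TMM scaling the counts were 247 higher and 186 lower. In H2-zero cells 303 of 6969 genes (4.35%) were higher and 290 (4.16%) lower, with a median of -0.12.

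Of the members' cytokine genes, Il22, Il17a and Il17f were much higher with IL-23. The median log2 ratio over the 15 measured was -0.20, and 9 lay between the bounds. Il22, whose product acts on epithelium, had 19459 CPM in IL-23 members and 6192 CPM in unstimulated members, 3.14-fold (3.11 to 3.18). Il17a had 240 and 19.8 CPM, 12.1-fold (10.1 to 14.7), and Il17f had 670 and 128 CPM, 5.24-fold (4.86 to 5.65). Areg, an epidermal growth factor receptor ligand, had 13.4 and 7.49 CPM, and Tnfsf14, the ligand LIGHT, had 31.0 and 18.4 CPM. These 5 were the cytokine genes of 15 measured that were at least 1.5-fold higher. Ltb, encoding lymphotoxin beta, was the 1 lower gene, at 56.4 and 103 CPM. In H2-zero cells Il22 had 28495 CPM with IL-23 and 5565 CPM without, 5.12-fold, and Il17a had 324 and 26.0 CPM, 12.5-fold.

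Genes downstream of STAT3, which transmits the signal of the IL-23 receptor, formed the list with the most genes past 1.5-fold. Of 17 measured, 11 were at least 1.5-fold higher in IL-23 members (Batf, Sbno2, Bcl3, Cebpd, Ahr, Myc, Pim2, Socs3, Icos, Hif1a and Stat3) and none was lower, with a median log2 ratio of 0.84, beside -0.08 over all genes. Over all genes 2.93% were higher. The list was not particular to members. In H2-zero cells 10 of 17 were higher and 1 was lower, with a median of 1.05 and Batf at 20.6-fold. Batf, an AP-1 factor of type 17 cells, had 416 CPM in IL-23 members and 37.4 CPM in unstimulated members, 11.1-fold (9.74 to 12.7). Sbno2 had 174 and 25.7 CPM, and Bcl3, a modulator of NF-kB, had 84.3 and 21.5 CPM. Socs3, the feedback inhibitor of this pathway, had 746 and 334 CPM.

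The other genes among the 15 highest in members were Gadd45g, Pqlc1, Irf2bpl, Cdc42ep2, Gcnt2, Frmd4b, Stom and Pdgfa. Gadd45g, a stress kinase regulator, had 942 CPM in IL-23 members and 146 CPM in unstimulated members, 6.47-fold (6.04 to 6.94). Pdgfa, a growth factor for stromal cells, had 64.9 and 20.3 CPM in members, against 15.7 and 4.93 CPM in H2-zero cells. It was thus both higher in members than in H2-zero cells and higher with IL-23. Of the core ILC3 genes, Il1r1, Il22 and Ahr were at least 1.5-fold higher with IL-23 and Gata3 was lower, at 27.0 CPM in IL-23 members and 52.4 CPM in unstimulated members. Il1r1, the IL-1 receptor, had 273 and 86.6 CPM.

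Cd40, Cd83 and Ccr7 did not follow the rise of Il22, Il17a and Il17f. Cd40 had 36.6 CPM in IL-23 members and 60.4 CPM in unstimulated members, 1.65-fold lower with IL-23. Cd83 had 369 and 517 CPM and Ccr7 had 22.0 and 31.4 CPM, which is 0.713 times (0.677 to 0.751) and 0.702 times (0.566 to 0.870) the unstimulated level. In H2-zero cells Cd83 had 93.8 and 179 CPM. There Cd40 was 2.01-fold and Ccr7 1.70-fold lower with IL-23, both from levels under 10 CPM, so lower values were not particular to members. Checkpoint genes were few, with Ctla4 at 37.5 CPM in IL-23 members and 4.06 CPM in unstimulated members, 9.26-fold (6.18 to 14.4). Of the homing genes S1pr1 was higher with IL-23 and Cxcr4 and Cxcr6 were lower.

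Among the 10 lowest genes in IL-23 members were Gm10076, Gm10827, Clec2d, Hist1h4h, mt-Atp8, Gata3, Bcl2a1b, Ltb and Nfe2l1. Gm10076 had 285 CPM in IL-23 members and 1474 CPM in unstimulated members, and 296 and 1433 CPM in H2-zero cells. Bcl2a1b, Hist1h4h and the predicted genes Gm10076 and Gm10827 belong to families with near-identical copies or overlap other genes, so their counts are uncertain. Clec2d, a ligand of NK receptors, had 32.2 and 82.8 CPM in members.

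**Figure D5:**
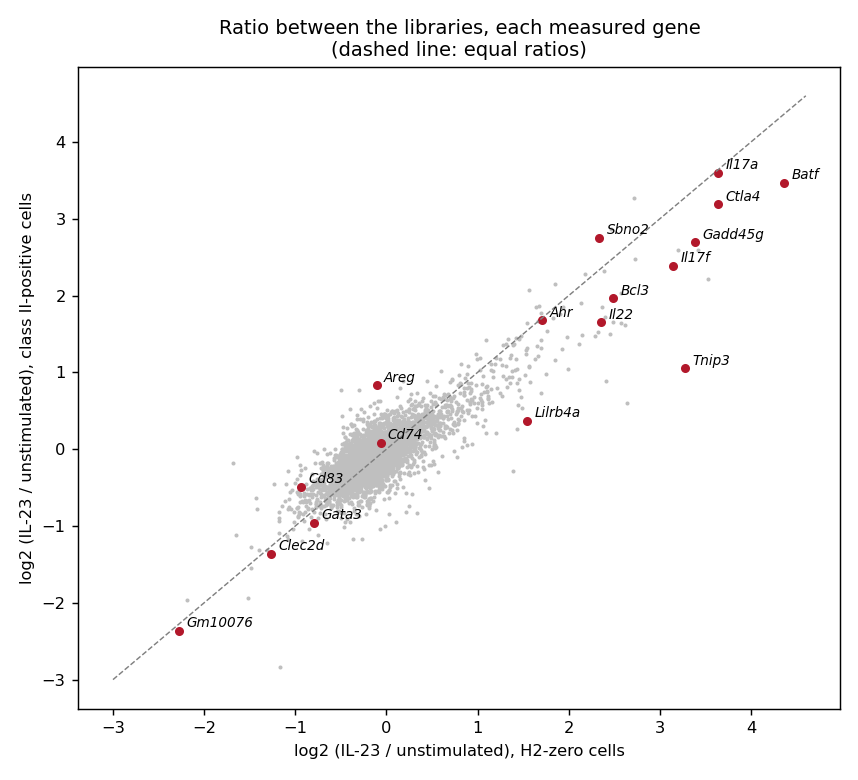
Log2 ratio of the IL-23 over the unstimulated library for each gene measured in both kinds of cell, in class II-positive cells (vertical) and H2-zero cells (horizontal), with selected genes in red and equal ratios on the dashed line. Il17a lies near the line at 3.60 and 3.64, Batf and Il22 lie under it at 3.47 and 1.65 in members against 4.36 and 2.36 in H2-zero cells, and Cd74 lies near 0 in both.

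The difference of the IL-23 ratio between members and H2-zero cells was not tested, since it rests on 4 sums from 2 libraries. Of 6668 genes, 48 (0.72%) had a ratio at least 1.5-fold higher in members and 76 (1.14%) at least 1.5-fold lower, with 37 and 105 under TMM scaling, 144 and 129 with H2-zero cells matched to members in UMIs, and 198 and 201 with every cell thinned to 3000 UMIs. The balance between higher and lower thus rests on the processing. Il22 was among the lower ones, at a difference of -0.70 on the log2 scale, as were Batf at -0.89, Il1r1 at -0.83, Il17f at -0.76 and Gadd45g at -0.69, while Il17a at -0.04 and Ahr at -0.03 were nearly equal. The members' unstimulated level of Il17f was 128 CPM against 84.4 CPM in H2-zero cells, and for Batf it was 37.4 against 27.0 CPM. In the IL-23 library the order was the other way, with Il17f at 670 against 747 CPM and Batf at 416 against 555 CPM. Set beside Ccr6+ H2-zero cells, part of this was not particular to members. The log2 IL-23 ratio there was 3.64 for Batf and 2.79 for Gadd45g, against 3.47 and 2.69 in members. For Il17f it was 2.98 against 2.39. Unstimulated Batf had 42.8 CPM in Ccr6+ H2-zero cells. The cytokine list, most of it Il22 in members, summed there to 32979 CPM with IL-23 and 9547 CPM without. It summed to 21506 and 7646 CPM in members, and to 30734 and 6974 CPM in all H2-zero cells. The lower Il22 ratio was thus not shown to be particular to members.

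By rank the lowest differences were those of Iglc1, Tnip3, Lilrb4a, Riox2 and Lilr4b. Tnip3, an inhibitor of NF-kB signalling, had 94.0 CPM in IL-23 members and 45.2 CPM in unstimulated members, against 26.2 and 2.68 CPM in H2-zero cells. Lilrb4a and Lilr4b are close relatives whose reads may be shared. Lilrb4a had 175 and 135 CPM in members and 106 and 36.5 CPM in H2-zero cells. Iglc1, an immunoglobulin light chain gene, had 2.54 and 1.25 CPM in members and 122 and 1.60 CPM in H2-zero cells, which unlike members were not held to the B cell exclusions. Its difference was -5.26, and 0.72 with H2-zero cells held to the same exclusions, so its direction rests on that choice.

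The highest differences were those of Coq8a, Cxcl10, Plac8, Stap1 and Ehd1. Plac8 had 260 CPM in IL-23 members and 269 CPM in unstimulated members, against 47.4 and 80.4 CPM in H2-zero cells, a difference of 0.72. Cxcl10, a chemokine for CXCR3+ cells, had 56.7 and 65.7 CPM in members and 47.6 and 91.6 CPM in H2-zero cells. Stap1, a signalling adaptor, had 81.9 and 140 CPM in members and 29.0 and 77.8 CPM in H2-zero cells. All 5 were at least 1.5-fold lower with IL-23 in H2-zero cells. In members Coq8a and Stap1 were too, while Plac8, Cxcl10 and Ehd1 lay between the bounds.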

How the data were processed

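The data are 2 droplet single-cell RNA libraries made with 10x Genomics reagents, 1 per group. The authors deposited UMI counts per gene and barcode, made with Cell Ranger 3.1.0 on mm10 per the submitters' processing notes, while the file headers name cellranger 6.0.0. The sources used here give neither the gene annotation nor the chemistry. The members, gene lists and comparisons were chosen with earlier results of these data known.

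Barcodes were kept from 500 genes up and with mitochondrial UMIs of 10% or less, 9251 of 10440 in the IL-23 library (median 6087 UMIs) and 10790 of 11096 in the unstimulated library (median 4928). No doublet caller was run. An alternative left out cells above 2 times the median UMIs. Counts were summed over the cells of a group and scaled to CPM, with 0.5 UMI added for log2 ratios. A gene was measured with at least 10 CPM in 1 sum and 20 UMIs over both, and counted as higher or lower at 1.5-fold, in both libraries where members were set against other cells. With 1 library per group no test was possible, and cells were not treated as replicates. Intervals are exact 95% ones and the limit for an observed 0 is 3 counts. For shares of cells with a UMI, cells were also thinned to 3000 UMIs (seed 11). Ratios and intervals of IL-23 against unstimulated members were tried on Poisson counts drawn from their sums, without variation between cells or libraries. The other comparisons were not simulated.

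The text names genes of the class II, co-stimulation, lymphoid tissue inducer-like, NCR-like, ILC3 core and cytokine lists and the given markers. It further names the 15 highest and 10 lowest genes of members over H2-zero cells (at least 20 CPM in the higher group) and of IL-23 over unstimulated members (at least 50 CPM), the 5 highest and 5 lowest differences of the IL-23 ratio, and the 10 genes most like H2-Ab1. Genes of other lists, beyond the highest and lowest of each, were picked after their values were seen. A few genes, and an alternative that rests on one of them, are not reported here. Python 3.11.15, numpy 2.4.6, scipy 1.17.1, pandas 2.3.3 and matplotlib 3.10.9 were used, with R 4.3.3 and edgeR 4.0.16 for TMM factors alone.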

Additional observations from a re-analysis of the deposited data

Results flagged for a closer look

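In 3 measured genes that the text may name, the IL-23 ratio had opposite signs in members and in H2-zero cells with both counting intervals clear of a ratio of 1. Other genes had opposite signs with an interval that held 1. The differences were not tested, since each group is 1 library. Areg, an epidermal growth factor receptor ligand, had a log2 ratio of 0.83 in members (13.4 CPM with IL-23, 7.49 CPM without) and -0.11 in H2-zero cells (34.8 and 37.5 CPM), a difference of 0.94. Cd274, encoding PD-L1, had -0.33 in members (22.2 and 27.9 CPM) and 0.26 in H2-zero cells (35.6 and 29.7 CPM), a difference of -0.59. Klrb1b, an NK receptor gene, had -0.13 in members (331 and 362 CPM) and 0.08 in H2-zero cells (574 and 541 CPM), a difference of -0.21.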

How the results depend on the processing

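No paired analysis was possible because each group is 1 library, and no replicate could be left out. The share of members in the IL-23 and unstimulated libraries was 13.9% and 13.4% with 2 class II UMIs required, 8.79% and 7.59% with 5, 8.89% and 8.69% after thinning, 8.28% and 7.81% with 9 more lineage genes at 0 (among them Zbtb46, which ILC3s hold), 12.9% and 12.2% with Cd4 not limited, and 10.1% and 9.81% with a Cd74 UMI required. That last alternative and the one without shared barcodes were chosen after seeing the data. Genes higher and lower in members than in H2-zero cells numbered 2387 and 1009 with no filter and 97 and 135 from 50 CPM. Genes higher and lower in IL-23 members numbered 2519 and 2926 with no filter and 86 and 54 from 50 CPM, and 460 were lower after thinning. Genes whose IL-23 ratio was higher and lower in members numbered 2256 and 2277 with no filter, 4 and 18 from 50 CPM, 198 and 201 after thinning, 144 and 129 with H2-zero cells matched in UMIs, and 78 and 120 without cells above 2 times the median, while 82 were higher with 5 class II UMIs and 96 with 9 more lineage genes. The filters change how many genes are tested, and the cause of the other shifts was not tested. The sign reversed in the difference of Iglc1, which was 0.45 with 9 more lineage genes, 0.72 with the same exclusions and 0.69 matched in UMIs. Of the single-gene values, 3647 stayed within their counting intervals and 446 moved past them in the same direction or from a ratio under 1.5-fold. Of 139 named values past 1.5-fold, the number that fell under it was 6 after thinning, 6 with the mean CPM of single cells, 5 with TMM, 5 with 2 class II UMIs, 3 with 5 class II UMIs, 3 with 9 more lineage genes, 2 with Cd4 not limited, 1 without cells above 2 times the median and 1 with a Cd74 UMI required, and it was 6 of 109 with H2-zero cells matched in UMIs. Scarce genes such as Ciita and Cd86 are limited by depth.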
